A study of Mus musculus with 27 samples.

Results

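The suprachiasmatic nucleus (SCN), the small paired nucleus above the optic chiasm that holds the master circadian clock, was set against hypothalamus tissue for its mature microRNAs (miRNAs). All mice were C57BL/6, and SCN and hypothalamus were taken as tissue pieces that were frozen at once in liquid nitrogen before total RNA was extracted with Trizol and made into small RNA libraries. The comparison held 2 SCN libraries and 2 hypothalamus libraries, 4 of the 27 samples of the series. Age, sex, time of day and the number of animals in a piece are not given in the sources used here. The labels do not say that replicates came from separate animals, so p-values measure the spread between these libraries, which may be technical. Of 739 miRNAs listed in the 4 libraries, the 368 with a deposited value of at least 100 in at least 2 of them were compared, and these held 99.9% of the signal in each library. Each library sums to about 10000000, and levels are given here as CPM, the deposited value divided by 10, so that the minimum is 10 CPM. Just inside it stood miR-98-3p, miR-669a-5p and miR-669p-5p, each with a second-highest level of 10 CPM, and just outside it stood miR-539-5p (9.7 CPM), miR-448-3p (9.4 CPM) and miR-670-5p (9.3 CPM).

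A miRNA is cut from a hairpin precursor, which can release a mature strand from its 5′ arm (5p) and another from its 3′ arm (3p), and it represses messenger RNAs that pair with its seed, bases 2 to 8 of the mature strand. miRNAs with the same seed share most predicted targets and are counted as a family. In the SCN, miR-132 is induced by light and miR-219 is under the control of CLOCK in mice, and both tune the period or the resetting of the rhythm.

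The estimated reads per library were 2245846 and 3585273 in SCN and 2282814 and 2220039 in hypothalamus, so that 3 reads correspond to 0.837 to 1.35 CPM. These floors cover counting error only. The replicates correlated across the tested miRNAs with r = 0.989 in SCN and 0.993 in hypothalamus on the log2 scale, where miRNAs are not independent replicates. The tissue labels were set against miR-7a-5p, a miRNA known to be rich in hypothalamus and pituitary. It had 39038.1 and 36214.7 CPM in SCN, 63114.7 and 63817.7 CPM in hypothalamus, and 2828.8 and 3509.0 CPM in the 2 cortex libraries. It does not mark every SCN library of the series, as 2 others (CTRL at CT18) had 1641.6 and 2356.5 CPM, under cortex. Small RNA libraries hold no messenger RNA markers of the SCN itself.

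The sequences that carry the differences are given from RefSeq (mouse build GRCm38.p6), 5′ to 3′ in RNA letters, with the seed in capitals; 318 of the 368 miRNAs (86.4%) were matched to such a sequence. The miR-125 strands share a seed and were both higher in SCN.
miR-125a-5p: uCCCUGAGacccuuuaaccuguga
miR-125b-5p: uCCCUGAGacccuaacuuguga
The next set also shares a seed, and its members were higher in SCN or did not pass the test.
miR-200b-3p: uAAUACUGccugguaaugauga
miR-200c-3p: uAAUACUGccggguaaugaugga
miR-429-3p: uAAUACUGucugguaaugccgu
The miR-99 and miR-100 strands share a seed but were called in opposite directions, miR-99b-5p higher and the others lower in SCN.
miR-99b-5p: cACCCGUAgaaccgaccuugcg
miR-99a-5p: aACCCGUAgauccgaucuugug
miR-100-5p: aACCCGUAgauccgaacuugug
The let-7 strands likewise share a seed and split, with let-7b-5p and let-7e-5p among the members higher in SCN and let-7g-5p and let-7f-5p among those lower.
let-7b-5p: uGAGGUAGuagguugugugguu
let-7e-5p: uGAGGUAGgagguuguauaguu
let-7g-5p: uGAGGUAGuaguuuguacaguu
let-7f-5p: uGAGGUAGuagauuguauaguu
Strands rich in G and C were common among those higher in SCN. Not all large rises were, as miR-200b-3p and miR-200c-3p have a share of G and C of 36.4% and 43.5%. Shown here are 4 of the 6 largest rises among miRNAs averaging at least 1000 CPM.
miR-149-5p: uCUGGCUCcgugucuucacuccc
miR-346-5p: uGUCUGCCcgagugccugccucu
miR-92b-3p: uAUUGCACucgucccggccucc
miR-770-5p: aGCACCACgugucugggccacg
Strands rich in A and U were common among those lower in SCN, though miR-879-5p, another large fall, has a share of G and C of 47.6%. Shown are 6 falls that are each among the largest in their range of abundance.
miR-144-3p: uACAGUAUagaugauguacu
miR-190a-5p: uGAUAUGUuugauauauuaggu
miR-340-5p: uUAUAAAGcaaugagacugauu
miR-335-5p: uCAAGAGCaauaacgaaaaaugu
miR-137-3p: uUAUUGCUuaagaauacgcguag
miR-21a-5p: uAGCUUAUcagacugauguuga
The sensory-organ strands miR-182-5p and miR-183-5p were higher in SCN although neither is rich in G and C.
miR-182-5p: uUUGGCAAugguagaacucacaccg
miR-183-5p: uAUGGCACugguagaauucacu

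The miRNA content of SCN differed widely from that of hypothalamus. By limma on log2(value + 1), fitted on the 6 tissue libraries (SCN, hypothalamus and cortex) and with a Benjamini-Hochberg adjusted p under 0.05 as the threshold, 263 of 368 miRNAs (71.5%) differed. Of these, 106 (28.8% of all tested) rose and 157 (42.7%) fell in SCN relative to hypothalamus. The libraries of the 2 tissues did not overlap for 321 miRNAs (87.2%), and these included every called miRNA. A change beyond 2-fold was called for 162 miRNAs (44.0%), 57 higher and 105 lower in SCN.

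The balance of rises and falls depended on how libraries were scaled. The median log2 fold change over all 368 miRNAs was -0.28 with the deposited scaling and -0.02 with median-ratio scaling. With the 10 most abundant miRNAs left out of the scaling, 129 rose and 125 fell, against 106 and 157 with the deposited scaling. The called rises held 53.9% and 55.2% of the signal in SCN, against 29.5% and 29.9% in hypothalamus. The called falls held 36.0% and 35.6% in SCN, against 61.1% and 60.6% in hypothalamus.

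**Figure D1:**
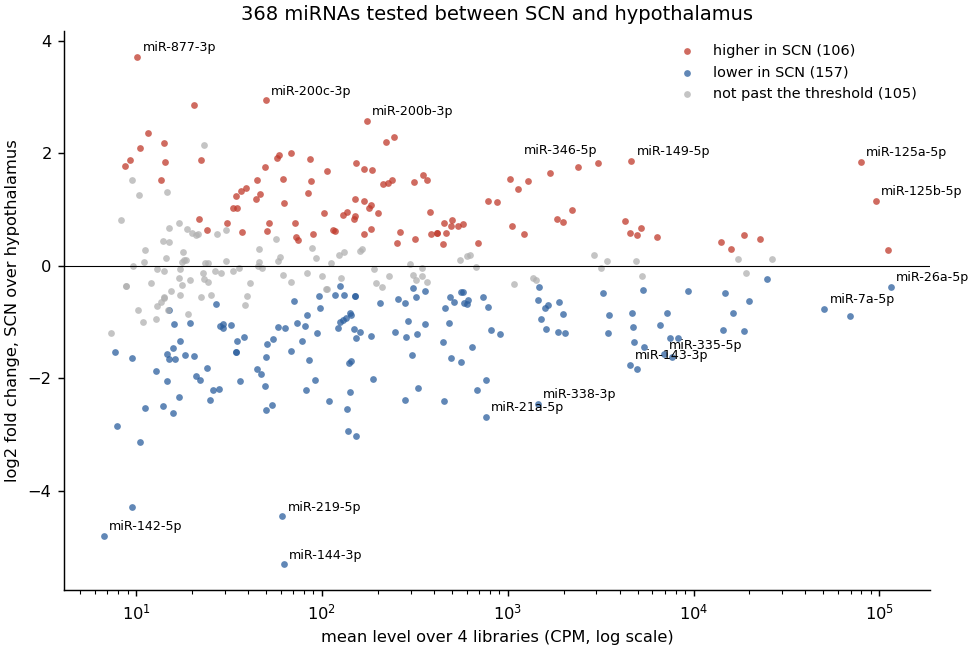
Log2 fold change of SCN over hypothalamus (y axis) against the mean level over the 4 libraries in CPM (x axis, log scale) for the 368 tested miRNAs. Red points are the 106 called higher in SCN, blue points the 157 called lower and grey points the 105 not past the threshold; calls in both directions occur at every level, and miR-125a-5p and miR-125b-5p stand out as abundant miRNAs higher in SCN.

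Both tissues were dominated by a few miRNAs, but their order differed. miR-125b-5p was the most abundant in SCN, with 13.8% and 12.7% of the signal in SCN and 6.05% and 5.77% in hypothalamus. miR-125a-5p came next, with 12.8% and 12.1% in SCN and 3.55% and 3.33% in hypothalamus. Both are mammalian homologues of worm lin-4 and are known for roles in neural differentiation. In CPM, miR-125a-5p had 127586.9 and 120530.2 in SCN and 35526.3 and 33275.1 in hypothalamus, a 3.61-fold excess (1.85 ± 0.09 SE on the log2 scale, adjusted p = 1.2e-06 by limma). miR-125b-5p had 137781.3 and 127362.7 CPM in SCN and 60522.0 and 57716.2 CPM in hypothalamus, 2.24-fold higher (1.16 ± 0.09, adjusted p = 6.7e-06). Neither pair of libraries overlapped. The precursor of miR-125a lies at chromosome 17, 17830812 to 17830879 (GRCm38, plus strand), in an exon of Spaca6, while miR-125b-5p is made from 2 precursors.

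miR-26a-5p led in hypothalamus and was lower in SCN, with 101317.4 and 99207.4 CPM in SCN and 128229.1 and 131804.1 CPM in hypothalamus (log2 fold change -0.37 ± 0.06, adjusted p = 0.00038). With median-ratio scaling this was -0.12 (adjusted p = 0.26). miR-99a-5p had 49614.9 and 48082.0 CPM in SCN and 86498.7 and 94447.8 CPM in hypothalamus, a fall of 0.89 ± 0.07 on the log2 scale (adjusted p = 7.6e-06). miR-7a-5p was lower in SCN as well (-0.76 ± 0.10, adjusted p = 0.00018), with no overlap between the tissues.

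miR-127-3p, a strand of the imprinted region between Dlk1 and Dio3 on chromosome 12, had 107324.5 and 137263.7 CPM in SCN and 96741.4 and 103147.5 CPM in hypothalamus (log2 fold change 0.28 ± 0.10, adjusted p = 0.036). That call was lost without SCN replicate 2 (0.10, adjusted p = 0.25) and without hypothalamus replicate 1 (0.23, adjusted p = 0.11). miR-191-5p did not pass the test, with 27488.1 and 28029.1 CPM in SCN and 25055.7 and 25804.2 CPM in hypothalamus (adjusted p = 0.13). miR-124-3p, the most familiar neuronal miRNA, had 21514.9 and 24162.1 CPM in SCN and 27192.5 and 26722.8 CPM in hypothalamus (-0.24 ± 0.08, adjusted p = 0.025). Its difference was 0.02 with median-ratio scaling, and the call was lost without SCN replicate 1 (-0.16, adjusted p = 0.12), without hypothalamus replicate 1 (-0.23, adjusted p = 0.11) and without hypothalamus replicate 2 (-0.25, adjusted p = 0.068).

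Among miRNAs averaging at least 1000 CPM, 24 rose, 37 fell and 11 did not pass the test. The largest rise was that of miR-149-5p, from an intron of the glypican gene Gpc1 (chromosome 1, 92850378 to 92850443, plus strand). It had 8039.9 and 6529.3 CPM in SCN and 1919.4 and 2044.6 CPM in hypothalamus, 3.68-fold higher (1.87 ± 0.13, adjusted p = 5.6e-06). miR-346-5p, from an intron of the glutamate receptor gene Grid1 (chromosome 14, 34894609 to 34894706, plus strand), had 4778.1 and 4724.4 CPM in SCN and 1382.4 and 1286.9 CPM in hypothalamus. It was 3.56-fold higher (1.83 ± 0.11, adjusted p = 2.7e-06), and SCN libraries stood above hypothalamus libraries for both miRNAs. miR-328-3p rose 3.41-fold, miR-92b-3p 3.18-fold and miR-770-5p, from an exon of the maternally expressed Meg3, 2.90-fold, the last not called with the GC trend described further on (0.33, adjusted p = 0.078).

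The largest fall in that range was that of miR-338-3p, an oligodendrocyte miRNA from an intron of Aatk (chromosome 11, 120014765 to 120014862, minus strand). It had 386.7 and 516.3 CPM in SCN and 2656.6 and 2248.3 CPM in hypothalamus, 5.43-fold lower in SCN (-2.45 ± 0.19, adjusted p = 7.9e-06). miR-335-5p, from an intron of the imprinted gene Mest (chromosome 6, 30741299 to 30741396, plus strand), had 3812.1 and 3172.8 CPM in SCN and 10343.5 and 10269.2 CPM in hypothalamus (-1.57 ± 0.11, adjusted p = 5.6e-06). The tissues did not overlap for either. miR-136-3p, which lies antisense to Rtl1, was 3.59-fold lower in SCN, miR-143-3p 3.38-fold, miR-30e-5p 3.12-fold and miR-148a-3p 2.72-fold.

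Between 100 and 1000 CPM, 44 miRNAs rose, 58 fell and 22 did not pass the test. miR-200b-3p, typical of epithelia, where it holds down Zeb1 and Zeb2, had 271.3 and 324.3 CPM in SCN and 39.0 and 63.1 CPM in hypothalamus, 5.83-fold higher (2.58 ± 0.26, adjusted p = 2.5e-05). miR-1249-3p had 466.0 and 349.9 CPM in SCN and 78.8 and 86.0 CPM in hypothalamus, and miR-455-3p had 413.5 and 311.2 CPM in SCN and 83.7 and 73.0 CPM in hypothalamus. These were 4.95-fold and 4.62-fold higher in SCN (adjusted p = 8.3e-06 and 9.1e-06), with SCN above hypothalamus in every library. miR-667-3p rose 3.57-fold and miR-770-3p 3.31-fold.

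On the other side, miR-21a-5p, known from activated microglia and proliferating cells, had 189.8 and 220.4 CPM in SCN and 1411.8 and 1212.9 CPM in hypothalamus, 6.40-fold lower in SCN (-2.68 ± 0.14, adjusted p = 1.2e-06). miR-340-5p had 176.9 and 118.3 CPM in SCN and 807.8 and 723.0 CPM in hypothalamus, 5.19-fold lower (-2.40 ± 0.19, adjusted p = 7.9e-06). miR-450a-5p was 5.34-fold lower. For these 3 the SCN libraries lay well under the hypothalamus libraries.

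Under 100 CPM, 38 miRNAs rose, 62 fell and 72 did not pass the test. miR-200c-3p, which shares the seed of miR-200b-3p, had 79.7 and 96 CPM in SCN and 7.8 and 16.2 CPM in hypothalamus, 7.32-fold higher (2.95 ± 0.39, adjusted p = 0.00014). Near the floor single libraries set the values. miR-1247-5p had 24.5 and 14.5 CPM in SCN and 2.6 and 4.9 CPM in hypothalamus (2.37 ± 0.71, adjusted p = 0.015), and lost its call without SCN replicate 1 (1.99, adjusted p = 0.14) or hypothalamus replicate 1 (1.92, adjusted p = 0.11). miR-574-5p had 20.4 and 13.6 CPM in SCN and 3.0 and 4.9 CPM in hypothalamus (2.09 ± 0.61, adjusted p = 0.012), and lost its call without the same libraries (1.80, adjusted p = 0.11, and 1.74, adjusted p = 0.083).

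Of the falls under 100 CPM, miR-190a-5p, from an intron of Tln2, had 0.4 and 1.6 CPM in SCN and 15.3 and 20.7 CPM in hypothalamus (-4.28 ± 0.68, adjusted p = 0.00045), with values of -3.40 without SCN replicate 1 and -5.16 without SCN replicate 2. miR-876-5p had 4.4 and 0.8 CPM in SCN and 23.2 and 13.5 CPM in hypothalamus (-3.14 ± 0.70, adjusted p = 0.0031), or -4.31 and -1.98 without these SCN libraries in turn. miR-879-5p had 1.7 and 1.9 CPM in SCN and 17 and 10.8 CPM in hypothalamus (-2.85 ± 0.53, adjusted p = 0.0011). SCN levels of all 3 were within a few reads of the floor.

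**Figure D2:**
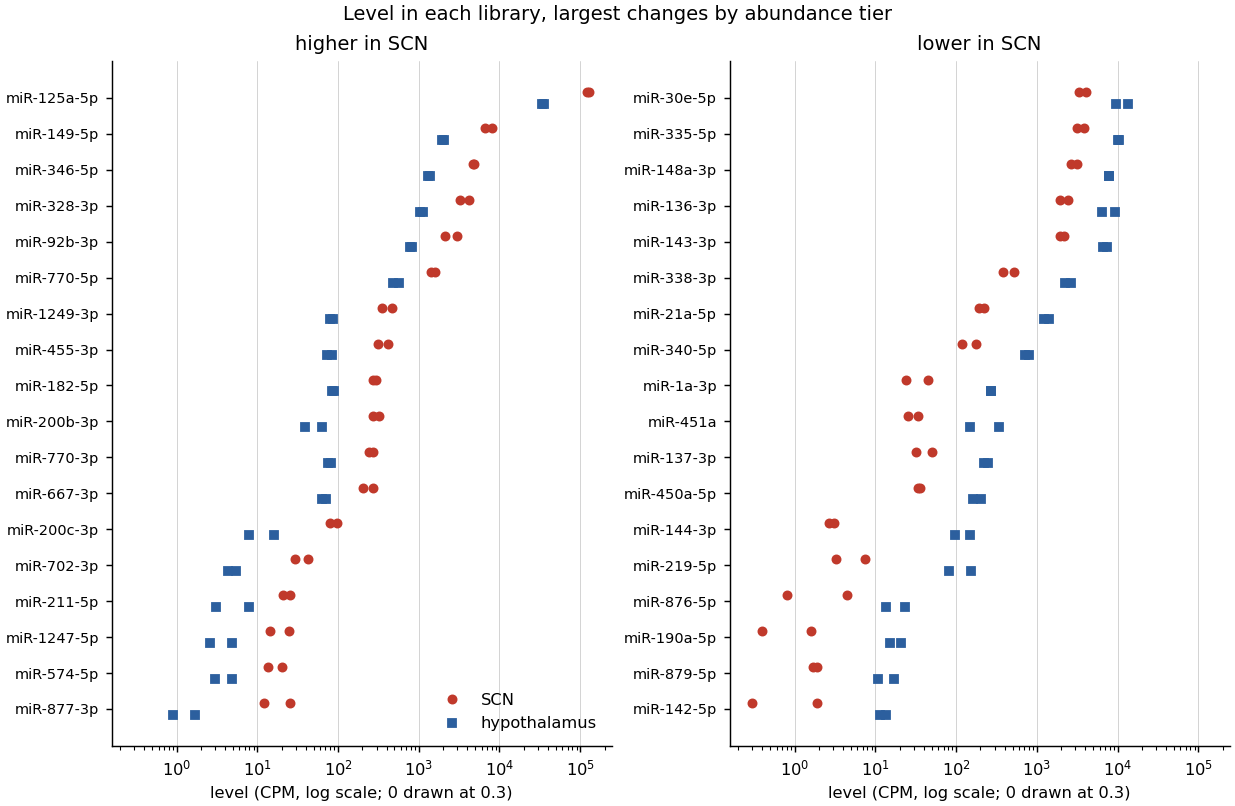
Level in each library in CPM (x axis, log scale; a value of 0 is drawn at 0.3) for the 6 largest rises (left) and 6 largest falls (right) in each of 3 abundance ranges. Red circles are the 2 SCN libraries and blue squares the 2 hypothalamus libraries; the tissues do not overlap for any of these miRNAs, as the rule that chose them required.

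Neuronal miRNAs were mostly lower in SCN than in hypothalamus. Of 16 tested, 3 rose, 11 fell and 2 did not pass the test, with a median log2 fold change of -1.27 beside -0.28 over all tested miRNAs, of which 28.8% rose and 42.7% fell. With each library's trend with the share of G and C subtracted, 3 rose and 4 fell of the 12 with a sequence (median -0.19). Under that setting miR-135a-5p (-0.26, adjusted p = 0.12) and miR-9-5p (0.20, adjusted p = 0.13) were not called. miR-137-3p, which acts in neuronal maturation, had 50.3 and 31.8 CPM in SCN and 248.5 and 219.0 CPM in hypothalamus, 5.69-fold lower in SCN (-2.54 ± 0.21, adjusted p = 1e-05). miR-135a-5p had 242.4 and 245.3 CPM in SCN and 1225.9 and 1034.0 CPM in hypothalamus (-2.21 ± 0.13, adjusted p = 2.7e-06). miR-9-5p, known from neural progenitors, had 4387.3 and 5277.8 CPM in SCN and 12332.6 and 11016.5 CPM in hypothalamus (-1.28 ± 0.11, adjusted p = 1e-05). miR-218-5p, rich in motor neurons, was 2.98-fold lower. The tissues did not overlap for any of these 4, nor for any other called miRNA. The list's summed level was 39114 and 43728 CPM in SCN and 62149 and 59018 CPM in hypothalamus. The 3 members that rose were miR-139-5p, miR-129-2-3p and miR-129-5p, by 0.70, 0.48 and 0.39 on the log2 scale. In bulk tissue, fewer cells of a type and less RNA per cell cannot be told apart.

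Of 12 hypothalamic and endocrine miRNAs, 6 rose, 3 fell and 3 did not pass the test, with a median of 0.73, beside 28.8% that rose and 42.7% that fell among all tested. The list's summed level ran the other way, at 53023 and 49934 CPM in SCN and 80693 and 82174 CPM in hypothalamus, as miR-7a-5p, which fell, is its most abundant member. The members that rose were miR-200a-3p, miR-200b-3p, miR-200c-3p, miR-375-3p, miR-7a-2-3p and miR-132-3p. miR-375-3p, an islet and pituitary miRNA that acts in hormone secretion, had 92.6 and 88.4 CPM in SCN and 22.3 and 25.6 CPM in hypothalamus (1.92 ± 0.33, adjusted p = 0.00074). The strands of the miR-7 hairpins did not move together: miR-7a-5p, miR-7b-5p and miR-7a-1-3p fell, while miR-7a-2-3p had 139.4 and 119.1 CPM in SCN and 43.8 and 47.3 CPM in hypothalamus (1.5 ± 0.31, adjusted p = 0.0019). miR-132-3p, which CREB and light induce in the SCN, had 499.9 and 613.4 CPM in SCN and 376.0 and 361.0 CPM in hypothalamus (0.59 ± 0.13, adjusted p = 0.0032). Its neighbour miR-212-3p had 152.8 and 133.9 CPM in SCN and 124.0 and 118.0 CPM in hypothalamus (adjusted p = 0.16). Both neighbours were above hypothalamus in both SCN libraries, as were 131 of all 368 miRNAs tested. The difference of miR-212-3p (0.24 on the log2 scale) did not pass the test.

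The cluster of miR-183, miR-96 and miR-182 on chromosome 6 (30165918 to 30169737), expressed in retina and other sensory organs, was higher in SCN for all 3 tested strands. Among all miRNAs tested, 28.8% rose. miR-183-5p had 494.1 and 564.3 CPM in SCN and 151.6 and 194.7 CPM in hypothalamus (1.62 ± 0.21, adjusted p = 0.00013). miR-182-5p had 274.9 and 292.5 CPM in SCN and 88.5 and 85.1 CPM in hypothalamus (1.71 ± 0.15, adjusted p = 1.3e-05). miR-96-5p rose 1.53-fold (0.62 ± 0.19, adjusted p = 0.018) and lost its call without SCN replicate 2 (0.60, adjusted p = 0.056) or hypothalamus replicate 1 (0.54, adjusted p = 0.086).

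miRNAs that mark other cell types also differed between the tissue pieces, and their part in the results above was not tested. All 4 oligodendrocyte miRNAs fell, beside 42.7% of all miRNAs tested, with a summed level of 1004 and 1551 CPM in SCN and 4185 and 3566 CPM in hypothalamus. miR-219-5p had 7.5 and 3.3 CPM in SCN and 151.2 and 82.0 CPM in hypothalamus (-4.45 ± 0.42, adjusted p = 1.8e-05), or -5.03 without SCN replicate 1 and -3.87 without SCN replicate 2. miR-338-5p and miR-219-2-3p fell less (-0.66 ± 0.20 and -0.74 ± 0.23). Both lost their call without SCN replicate 1 (adjusted p = 0.073 and 0.07), miR-338-5p also without hypothalamus replicate 1 (adjusted p = 0.052), and both with median-ratio scaling (adjusted p = 0.12 and 0.11), so that 2 of the 4 were then called.

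All 7 vascular miRNAs fell, beside 42.7% of all tested, with sums of 4057 and 4046 CPM in SCN and 11297 and 12023 CPM in hypothalamus. miR-143-3p, from vascular smooth muscle, had 2185.6 and 1962.3 CPM in SCN and 6626.5 and 7389.3 CPM in hypothalamus (-1.76 ± 0.10, adjusted p = 2.4e-06). The endothelial miR-126-3p had 1078.7 and 1223.8 CPM in SCN and 2605.3 and 2549.5 CPM in hypothalamus (-1.17 ± 0.12, adjusted p = 2.3e-05), and its partner miR-126-5p was 4.48-fold lower. None of these libraries overlapped between tissues, as held for every called miRNA. Of the muscle miRNAs, both tested members fell, beside 42.7% of all tested. With its untested members, that list summed to 68.8 and 45.3 CPM in SCN and 325 and 317 CPM in hypothalamus.

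Of 4 erythrocyte miRNAs, 3 fell and 1 rose, with a median of -2.73. Over all miRNAs tested, 42.7% fell and 28.8% rose, with a median of -0.28. miR-144-3p had 3.1 and 2.7 CPM in SCN and 95.9 and 146.9 CPM in hypothalamus, 41.9-fold lower in SCN (-5.31 ± 0.24, adjusted p = 1.2e-06). miR-451a, which is cut by Ago2 rather than Dicer, had 33.8 and 25.6 CPM in SCN and 149.4 and 341.2 CPM in hypothalamus (-2.94 ± 0.34, adjusted p = 5.7e-05), or -3.53 without hypothalamus replicate 1 and -2.34 without hypothalamus replicate 2. The exception was miR-486-5p at 544.0 and 453.8 CPM in SCN and 291.4 and 373.6 CPM in hypothalamus (0.59 ± 0.22, adjusted p = 0.034), and its entry was nearly equal to that of miR-3107-5p. Without SCN replicate 1 or hypothalamus replicate 1 its call was lost (adjusted p = 0.14 and 0.16). The sum over the list, 589 and 493 CPM in SCN and 554 and 896 CPM in hypothalamus, overlapped between the tissues. Of the summed level of the 4 tested members alone, miR-486-5p made up 93.3% and 93.3% in SCN and 53.1% and 42.1% in hypothalamus.

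Microglia and leukocyte miRNAs had sums of 2084 and 2297 CPM in SCN and 3895 and 3905 CPM in hypothalamus. Of 4 tested, miR-21a-5p, miR-146a-5p and miR-142-5p fell and miR-150-5p, known from lymphocytes, rose 1.93-fold. miR-142-5p was at 0.0 and 1.9 CPM in SCN and 11.3 and 13.5 CPM in hypothalamus (-4.80 ± 1.26, adjusted p = 0.0074), or -2.64 without SCN replicate 1 and -6.96 without SCN replicate 2. Choroid plexus and ciliated-cell miRNAs had sums of 8710 and 8942 CPM in SCN and 7457 and 7256 CPM in hypothalamus, and of 6 tested 3 rose, 1 fell and 2 did not pass. Beside both lists, 28.8% of all miRNAs tested rose and 42.7% fell.

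The choroid plexus list was led by miR-204-5p, from an intron of Trpm3, which had 7045.3 and 7909.8 CPM in SCN and 5010.0 and 5458.2 CPM in hypothalamus (0.51 ± 0.11, adjusted p = 0.0022). Its relative miR-211-5p, from an intron of Trpm1, had 20.9 and 25.1 CPM in SCN and 7.8 and 3.1 CPM in hypothalamus (2.19 ± 0.76, adjusted p = 0.027). The call of miR-211-5p was lost without SCN replicate 1, SCN replicate 2 or hypothalamus replicate 2 (adjusted p = 0.076, 0.11 and 0.10), and its value was 2.85 without hypothalamus replicate 1 and 1.54 without hypothalamus replicate 2. miR-34b-3p rose (1.18 ± 0.36, adjusted p = 0.015; 0.70 and adjusted p = 0.13 without SCN replicate 1) and miR-34c-5p, from the same cluster, fell (-0.95 ± 0.23, adjusted p = 0.0051). The strands of this ciliated-cell cluster called in opposite directions were thus a 3p strand and a 5p strand of different hairpins. The other strand tested, miR-34c-3p, did not pass the test (log2 fold change 0.08).

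The posterior Hox-cluster miRNAs miR-10a-5p and miR-10b-5p, which are typical of hindbrain and spinal cord, were both lower in SCN, beside 42.7% of all miRNAs tested. miR-10a-5p had 65.5 and 89.5 CPM in SCN and 159.9 and 171.2 CPM in hypothalamus (-1.11 ± 0.19, adjusted p = 0.00074). miR-10b-5p had 125.6 and 66.9 CPM in SCN and 157.3 and 191.1 CPM in hypothalamus (-0.92 ± 0.30, adjusted p = 0.021), and lost its call without SCN replicate 2 (-0.46, adjusted p = 0.14) and with median-ratio scaling (-0.66, adjusted p = 0.066).

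Mirtrons, which are spliced short introns that bypass Drosha, were higher in SCN for all 4 tested strands, beside 28.8% of all miRNAs tested. With its untested members, the list summed to 179 and 160 CPM in SCN and 44.9 and 30.5 CPM in hypothalamus. miR-1224-5p, from an intron of Vwa5b2, had 88.6 and 98.8 CPM in SCN and 29.3 and 19.3 CPM in hypothalamus (1.97 ± 0.33, adjusted p = 0.00054). miR-702-3p had 42.7 and 29.5 CPM in SCN and 4.3 and 5.4 CPM in hypothalamus (2.86 ± 1.0, adjusted p = 0.028). miR-877-3p, from an intron of Abcf1, had 25.8 and 12 CPM in SCN and 1.7 and 0.9 CPM in hypothalamus (3.72 ± 0.93, adjusted p = 0.0057). SCN lay above hypothalamus in every library, but only 1 or 2 of the 4 were called when any library was left out: miR-702-3p and miR-877-5p lost their call in every case (adjusted p = 0.089 to 0.19 for miR-702-3p and 0.064 to 0.28 for miR-877-5p), and miR-877-3p without SCN replicate 1 (3.17, adjusted p = 0.11). The libraries did not overlap for any called miRNA, so that adds nothing for these 4 strands. The median GC share of these strands was 65.8%. Of all 78 miRNAs with a GC share of 57.1% to 73.9%, 47 rose.

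Of 24 miRNAs linked to clock genes in published work, 3 rose, 14 fell and 7 did not pass the test, with a median of -0.90, beside 28.8% that rose and 42.7% that fell among all tested. The 3 that rose were miR-182-5p, miR-96-5p and miR-132-3p. miR-219-5p fell, as given above with the oligodendrocyte miRNAs, to which it also belongs. miR-24-3p, which represses Per messenger RNAs in mouse cells, had 4284.0 and 4326.1 CPM in SCN and 8961.4 and 8806.5 CPM in hypothalamus (-1.05 ± 0.08, adjusted p = 6.7e-06). miR-30a-5p, likewise a repressor of Per, had 4734.9 and 3933.9 CPM in SCN and 10983.0 and 10116.4 CPM in hypothalamus (-1.29 ± 0.11, adjusted p = 1e-05). miR-27b-3p was 2.21-fold lower in SCN. All 3 were lower in both SCN libraries than in either hypothalamus library, as was every called fall.

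miRNAs from introns of the serotonin receptor gene Htr2c on chromosome X were lower in both SCN libraries for all 5 tested strands. The same held for 190 of all 368 miRNAs tested, and of the 5 strands only miR-1298-3p passed the test. It had 53.9 and 63.6 CPM in SCN and 105.1 and 109.0 CPM in hypothalamus (-0.87 ± 0.23, adjusted p = 0.007). miR-1264-3p had 199.1 and 167.4 CPM in SCN and 216.9 and 256.4 CPM in hypothalamus (-0.37 ± 0.17, adjusted p = 0.075). In the fit on the 4 SCN and hypothalamus libraries alone 3 of the 5 were called. Of the large cluster in an intron of Sfmbt2, 4 of 49 entries could be tested, of which miR-669c-5p rose 2.91-fold, miR-467a-5p fell 2.10-fold and the others, miR-669a-5p and miR-669p-5p with nearly equal entries, did not pass the test.

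The imprinted Dlk1-Dio3 region, whose miRNAs are expressed from the maternal chromosome, gave 66 tested strands. Of these 18 rose, 25 fell and 23 did not pass the test, near the 28.8% and 42.7% of all miRNAs, with a median of -0.25 beside -0.28. miR-668-3p had 581.9 and 504.0 CPM in SCN and 177.9 and 198.7 CPM in hypothalamus (1.53 ± 0.15, adjusted p = 1.9e-05). miR-433-3p had 1677.2 and 1583.9 CPM in SCN and 629.4 and 641.8 CPM in hypothalamus (1.36 ± 0.11, adjusted p = 1e-05). miR-369-3p, by contrast, had 289.1 and 234.4 CPM in SCN and 866.5 and 838.8 CPM in hypothalamus (-1.71 ± 0.14, adjusted p = 7.9e-06). With the GC trend subtracted, as described further on, miR-369-3p was called higher in SCN (1.0, adjusted p = 5.4e-05). Of 33 strands with a GC share under 50%, 2 rose and 21 fell (median -0.60), and of 31 with a share of 50% or more, 15 rose and 4 fell (median 0.45).

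Summed by seed, 183 of 261 families (70.1%) differed, 74 higher and 109 lower in SCN. The sums lack miRNAs with no RefSeq sequence. The miR-125 family, with miR-351-5p as a minor member, had 265583.4 and 248076.8 CPM in SCN and 96175.8 and 91135.0 CPM in hypothalamus, 2.74-fold higher (1.46 ± 0.09, adjusted p = 4.4e-07). It thus held 26.6% and 24.8% of the signal in SCN, against 9.62% and 9.11% in hypothalamus. The family of miR-200b-3p had 371.9 and 440.6 CPM in SCN and 52.9 and 90.5 CPM in hypothalamus, 5.67-fold higher (2.55 ± 0.27, adjusted p = 1.3e-05). The sum of miR-34a-5p, miR-34b-5p and miR-449a-5p was 5.25-fold lower in SCN, at 6.1 and 10.8 CPM in SCN and 56.4 and 32.3 CPM in hypothalamus (-2.38 ± 0.34, adjusted p = 0.00011). It lacks miR-34c-5p, which had no matched sequence and was far more abundant. That strand had 1275.7 and 811.0 CPM in SCN and 2310.8 and 1664.2 CPM in hypothalamus, 1.9-fold lower in SCN. The level and fold of the sum are thus not those of all miR-34 strands.

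Of 35 families with at least 2 tested members, 3 held members called in both directions, and 2 of these are among the most abundant families. In the miR-99 family, miR-99b-5p had 27451.2 and 25644.7 CPM in SCN and 19144.9 and 19162.7 CPM in hypothalamus (0.47 ± 0.08, adjusted p = 0.00046). miR-100-5p had 11159.1 and 12004.8 CPM in SCN and 26260.2 and 25600.9 CPM in hypothalamus (-1.16 ± 0.08, adjusted p = 4.8e-06). As miR-99a-5p also fell, the sum was 88225.2 and 85731.5 CPM in SCN and 131903.8 and 139211.4 CPM in hypothalamus (-0.64 ± 0.07, adjusted p = 1e-05). The family of miR-92b-3p and miR-92a-3p, which rose, with miR-25-3p, which fell by 0.53 ± 0.17, had a sum 2.54-fold higher in SCN (1.33 ± 0.14, adjusted p = 1.5e-05).

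The let-7 family, which marks differentiated cells, had a nearly equal sum in the tissues but a different makeup. Its sum was 82223.2 and 94801.9 CPM in SCN and 90682.0 and 92930.6 CPM in hypothalamus (-0.06 ± 0.08, adjusted p = 0.55), and 0.27 (adjusted p = 0.017) with the 10 most abundant miRNAs left out of the scaling. let-7b-5p, let-7c-5p, let-7d-5p, let-7e-5p and let-7a-5p rose, by 0.79, 0.55, 0.54, 0.68 and 0.30 on the log2 scale. let-7g-5p, let-7i-5p and let-7f-5p fell, by 0.83, 0.83 and 0.62, and miR-98-5p fell by 1.02. let-7c-5p, for example, had 19649.6 and 24660.0 CPM in SCN and 14352.3 and 15784.7 CPM in hypothalamus, while let-7f-5p had 15645.0 and 15609.5 CPM in SCN and 23901.2 and 24022.3 CPM in hypothalamus. Most mature let-7 strands differ by few bases, so reads could be split between these entries in the authors' counting. Whether that bears on these differences was not tested.

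The strands of a hairpin often differed unequally between the tissues. Of 88 hairpins with both arms tested, the ratio of 5p to 3p differed for 46 (52.3%), higher in SCN for 11 and lower for 35. Both arms fell in 27 hairpins, both rose in 11, and 1 arm alone was called in 34. The arms were called in opposite directions in 6 hairpins, all of them among the 21 of the Dlk1-Dio3 region, and 0 of the 67 elsewhere; the difference between region and elsewhere was not tested. The count rested on weak calls of single arms. It was 3 and 3 without SCN replicates 1 and 2, 2 and 3 without hypothalamus replicates 1 and 2, 2 with no filter on low values, and 4 of 20 with the GC trend described further on. Outside the region, 1 hairpin had opposite calls with median-ratio scaling, with the 10 most abundant miRNAs left out of the scaling, with the GC trend and without SCN replicate 2, and 2 had them with quantile normalization. miR-434 kept opposite calls in every setting tried, whereas miR-433 and miR-127 did not.

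In the miR-434 hairpin, the 5p strand had 3201.6 and 2791.3 CPM in SCN and 7081.0 and 5702.1 CPM in hypothalamus. The 3p strand had 17840.9 and 14444.8 CPM in SCN and 12578.5 and 11482.2 CPM in hypothalamus. The ratio of 5p to 3p was thus 0.179 and 0.193 in SCN and 0.563 and 0.497 in hypothalamus (log2 change -1.51 ± 0.15, limma adjusted p = 6.5e-05). The tissues did not overlap for either strand or for the ratio. The ratio was also lower in SCN for miR-409 (5.98 and 6.80 in SCN, 14.4 and 14.2 in hypothalamus; adjusted p = 0.00011) and for miR-433 (0.0132 and 0.0123 in SCN, 0.0521 and 0.0519 in hypothalamus; adjusted p = 0.00015). It was lower as well for miR-127 (log2 change -1.39 ± 0.17) and miR-329 (-1.44 ± 0.22), and higher in SCN for miR-377.

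In the miR-377 hairpin the 5p strand had 33.4 and 25.9 CPM in SCN and 19.2 and 18.4 CPM in hypothalamus, and the 3p strand 8.9 and 11.4 CPM in SCN and 31.9 and 29.7 CPM in hypothalamus. Its ratio was 3.75 and 2.27 in SCN and 0.602 and 0.62 in hypothalamus (2.25 ± 0.30, adjusted p = 0.00028), so that the more abundant arm was 5p in SCN and 3p in hypothalamus. A ratio within a library does not depend on its scaling. Outside the region, the ratio of the oligodendrocyte hairpin miR-338 was 0.452 and 0.509 in SCN and 0.135 and 0.142 in hypothalamus (1.79 ± 0.15, adjusted p = 4e-05), since its 3p strand fell more than its 5p strand. Of the called hairpins, 38 had a sequence for both arms. The arm richer in G and C was the relatively higher one in SCN in 28 of these and the lower one in 10. Over all 72 tested hairpins with both sequences, the ratio change correlated with the GC share of 5p minus 3p with Pearson r = 0.36.

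**Figure D3:**
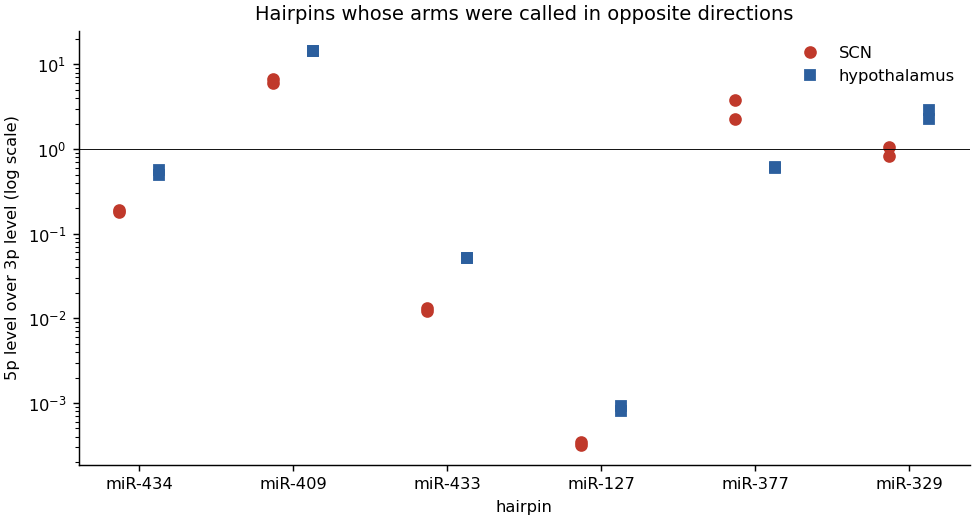
Ratio of the 5p level to the 3p level (y axis, log scale) in each library for the 6 hairpins whose arms were called in opposite directions. Red circles are the 2 SCN libraries and blue squares the 2 hypothalamus libraries; the ratio is lower in SCN for 5 hairpins and higher for miR-377, and a line marks equal arms.

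Neighbouring miRNAs were grouped where precursors lay within 10 kb on a strand, which gave 21 clusters with at least 3 tested strands. Among the called strands, 8 clusters held rises alone, 6 falls alone and 6 both directions, and 1 held no call. Beside these counts, 28.8% of all miRNAs tested rose and 42.7% fell, and a cluster can hold both arms of a hairpin. Whether strands of a cluster differed alike more often than other strands was not tested. On chromosome 17, miR-99b, let-7e and miR-125a (17830188 to 17830879) gave 4 rises, no fall and 2 strands not past the test, with log2 fold changes of 0.43 to 1.85. On chromosome 2, miR-296 and miR-298 (174267047 to 174267585) gave 3 rises of 0.91 to 1.0. On chromosome 11, miR-144 and miR-451a (78073005 to 78073241) gave 3 falls. On chromosome 5, miR-25, miR-93 and miR-106b (138165321 to 138165818) gave 3 falls and miR-106b-3p at -0.03, beside its partner strand miR-106b-5p at -2.50. The arms of this miR-106b hairpin, with a GC share of 42.9% (5p) and 63.6% (3p), thus did not differ alike.

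The direction of a difference went with the base composition of the mature strand. Across the 318 miRNAs with a sequence, the log2 fold change of SCN over hypothalamus correlated with the share of G and C with Pearson r = 0.63 and Spearman rho = 0.63; the points share the same 4 libraries and are not independent. The r was 0.64 among 62 miRNAs averaging at least 1000 CPM, 0.60 among 107 between 100 and 1000 CPM and 0.68 among 149 under 100 CPM. It was 0.74 among 64 strands of the Dlk1-Dio3 region. The difference between the SCN replicates correlated with the GC share with r = 0.20 and that between the hypothalamus replicates with r = -0.01. Length in bases gave r = 0.13.

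Of the 94 miRNAs with the lowest GC shares (22.7% to 40.9%), 11 rose and 72 fell, with a median log2 fold change of -1.20. Of the 78 with the highest (57.1% to 73.9%), 47 rose and 5 fell, with a median of 0.77. The mean GC share was 56.1% ± 10.2 for the rises (SD over 92 miRNAs), 42.1% ± 7.5 for the falls (140 miRNAs) and 51.3% ± 8.2 for those not past the test (86 miRNAs). Weighted by signal, the GC share of a library was 48.1% and 48.3% in SCN, 45.6% and 45.8% in hypothalamus and 45.2% and 45.4% in cortex. The cause of this relation was not tested.

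**Figure D4:**
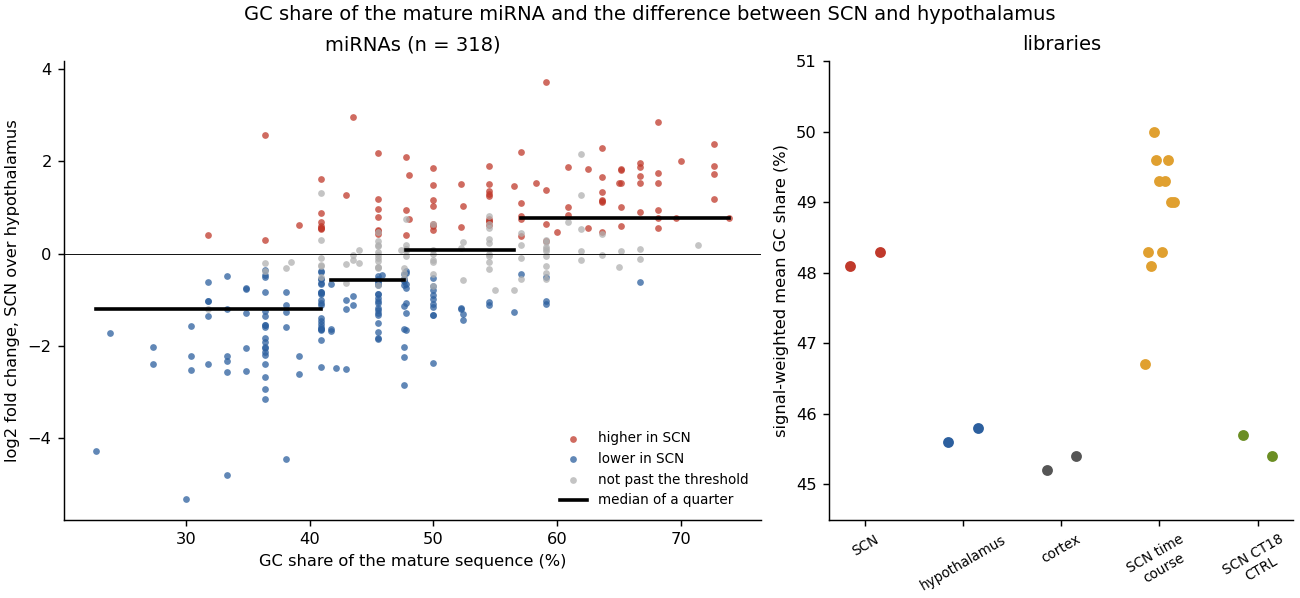
Left, log2 fold change of SCN over hypothalamus (y axis) against the GC share of the mature sequence in percent (x axis) for 318 miRNAs, red for higher in SCN, blue for lower and grey for not past the threshold, with black bars for the median in 4 GC groups (-1.20 in the lowest and 0.77 in the highest). Right, signal-weighted mean GC share (y axis, percent) of each library by group; the SCN libraries sit at 48.1% and 48.3%, above those of hypothalamus, cortex and the CT18 CTRL samples and within the range of the time course.

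When each library's trend with the GC share was subtracted before the fit, 179 of the 318 miRNAs (56.3%) were called, against 232 (73.0%) of the same miRNAs without that step. Of the 92 rises 60 stayed rises and 4 became falls, and of the 140 falls 69 stayed falls and 16 became rises. miR-200b-3p (3.88), miR-200c-3p (3.55), miR-183-5p (2.47), miR-125a-5p (1.98), miR-182-5p (1.97) and miR-149-5p (1.20) stayed higher in SCN. miR-144-3p (-3.31), miR-219-5p (-3.32), miR-338-3p (-1.60), miR-21a-5p (-1.37) and miR-137-3p (-1.06) stayed lower. miR-26a-5p (0.48, adjusted p = 0.00055), miR-7a-5p (0.72, adjusted p = 8.2e-05), miR-335-5p (0.38, adjusted p = 0.012) and miR-369-3p (1.0, adjusted p = 5.4e-05) were higher in SCN after that step, and miR-99b-5p was lower (-0.40, adjusted p = 0.0037).

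Some lists changed with that step and others did not. The neuronal miRNAs are given above. Of the hypothalamic and endocrine miRNAs, 8 of 11 rose and the others did not pass the test, with a median of 1.15. All 3 strands of the sensory cluster stayed higher in SCN. Of the mirtrons 2 of 4 stayed higher, miR-702-3p being at 1.64 (adjusted p = 0.15) and miR-877-5p at 0.55 (adjusted p = 0.44). miR-340-5p (-0.09, adjusted p = 0.66), miR-190a-5p (-1.45, adjusted p = 0.078), miR-770-5p (0.33, adjusted p = 0.078) and miR-770-3p (0.18, adjusted p = 0.44) were no longer called.

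Other SCN libraries of the series were set beside the comparison as values, without a test, since they come from other experiments and would share the hypothalamus libraries. They are a time course of 11 SCN libraries, given as lowest, median and highest, and 2 SCN libraries named CTRL at CT18 (circadian time 18 h). The miR-125 strands stood at SCN levels there: miR-125a-5p had 96276.4, 142299.2 and 159266.7 CPM over the time course and 104913.0 and 110192.2 CPM in CTRL, against 35526.3 and 33275.1 CPM in hypothalamus. miR-149-5p had 2840.6, 5770.9 and 6702.5 CPM over the time course and 4799.2 and 6251.2 CPM in CTRL, above the 1919.4 and 2044.6 CPM of hypothalamus. miR-338-3p had 406.3, 586.7 and 954.3 CPM over the time course and 714.0 and 885.8 CPM in CTRL, under the 2656.6 and 2248.3 CPM of hypothalamus. Its partner miR-338-5p, also lower in the SCN tissue libraries, had 601.9, 776.3 and 1182.4 CPM over the time course, all above the 358.9 and 319.5 CPM of hypothalamus, but 159.3 and 179.7 CPM in CTRL. miR-24-3p, at 4284.0 and 4326.1 CPM in the SCN tissue libraries, had 7289.4, 9107.6 and 11135.1 CPM over the time course, a range that holds the 8961.4 and 8806.5 CPM of hypothalamus, and 36.6 and 52.8 CPM in CTRL. The lower SCN level of this clock-linked miRNA was thus not seen over the time course. miR-124-3p, slightly lower in the SCN tissue libraries, had 24816.4, 35887.3 and 48158.7 CPM over the time course and 33739.7 and 27221.5 CPM in CTRL, beside 27192.5 and 26722.8 CPM in hypothalamus.

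The miR-200 and miR-183 strands did not have SCN levels in those libraries. miR-200b-3p, at 271.3 and 324.3 CPM in the SCN tissue libraries, had 1.3, 6.5 and 32.9 CPM over the time course and 5.0 and 6.2 CPM in CTRL, under the 39.0 and 63.1 CPM of hypothalamus. miR-200c-3p had 0.2, 3.1 and 16.9 CPM over the time course and 1.6 and 4.1 CPM in CTRL. miR-183-5p, at 494.1 and 564.3 CPM in the SCN tissue libraries, had 21.5, 54.0 and 206.0 CPM over the time course and 18.5 and 26.9 CPM in CTRL, beside 151.6 and 194.7 CPM in hypothalamus. miR-182-5p had 15.3, 33.8 and 139.2 CPM over the time course and 12.3 and 22.7 CPM in CTRL, beside 88.5 and 85.1 CPM in hypothalamus. The higher level of these epithelial and sensory miRNAs was thus seen in the 2 SCN tissue libraries and not in the median of the time course or in CTRL.

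miR-7a-5p likewise varied between SCN libraries, with 9000.3, 13077.1 and 40337.0 CPM over the time course and 1641.6 and 2356.5 CPM in CTRL, against 39038.1 and 36214.7 CPM in the SCN tissue libraries. miR-335-5p had 2479.0, 4340.1 and 8298.6 CPM over the time course, under hypothalamus, but 9937.0 and 11312.4 CPM in CTRL, close to the 10343.5 and 10269.2 CPM of hypothalamus. miR-204-5p, higher in the SCN tissue libraries, had 2592.9, 3341.8 and 4696.4 CPM over the time course and 1173.0 and 1514.7 CPM in CTRL. All of these lay under the 5010.0 and 5458.2 CPM of hypothalamus. miR-135a-5p, lower in the SCN tissue libraries, had 1032.2 and 1058.3 CPM in CTRL, beside 1225.9 and 1034.0 CPM in hypothalamus. Its time course, at 236.9, 513.8 and 854.7 CPM, lay under hypothalamus. Other named miRNAs were not all set beside these libraries. The signal-weighted GC share was 46.7%, 49.0% and 50% (lowest, median and highest) over the time course and 45.7% and 45.4% in CTRL.

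**Figure D5:**
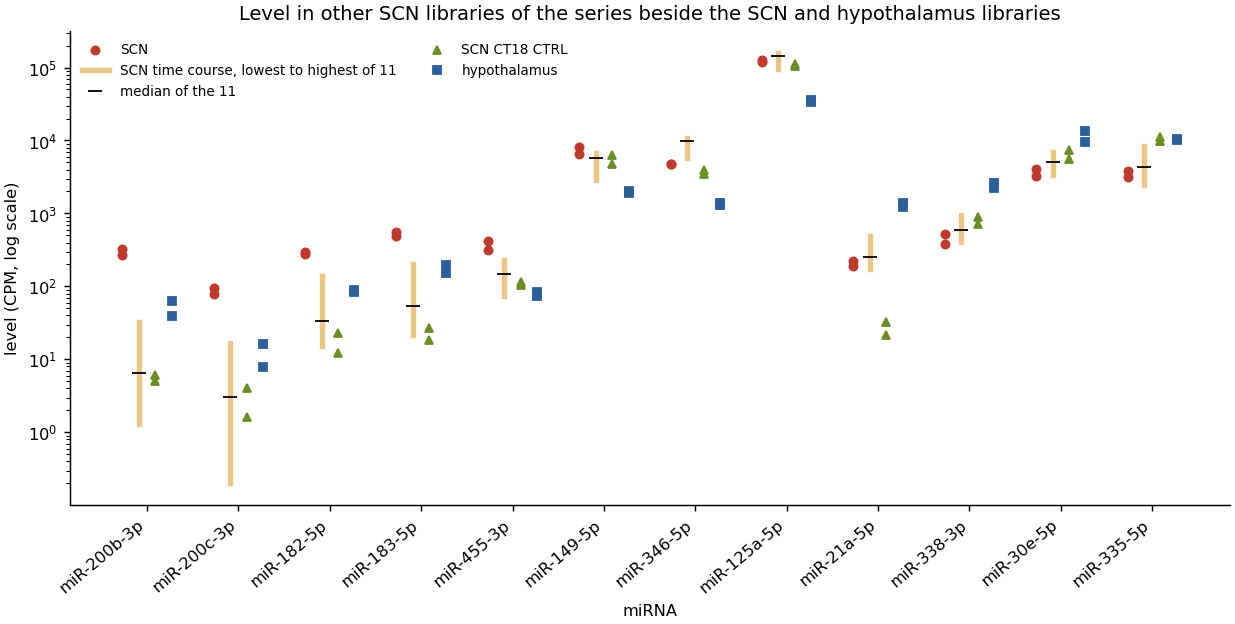
Level in CPM (y axis, log scale) of 12 miRNAs in the 2 SCN tissue libraries (red circles), the 11 SCN time-course libraries (yellow bar from lowest to highest, black line at the median), the 2 SCN CT18 CTRL libraries (green triangles) and the 2 hypothalamus libraries (blue squares). miR-125a-5p and miR-149-5p stand above hypothalamus in every SCN group, while miR-200b-3p, at 271.3 and 324.3 CPM in SCN tissue, stays at or under 32.9 CPM in the other SCN libraries.

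No miRNA of appreciable level was listed in a single tissue. Of miRNAs listed in both libraries of a tissue and at 0 in both of the other, there were 11 in SCN and 17 in hypothalamus, and none reached the minimum for testing. The highest were miR-709 with 4.0 and 0.2 CPM in SCN and miR-33-5p with 4.3 and 0.4 CPM in hypothalamus, each under 1 CPM in 1 of its 2 libraries.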

How the data were processed

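Small RNA libraries from SCN, hypothalamus and cortex tissue (2 each) were read as deposited, beside 11 SCN time-course and 2 CT18 CTRL libraries used for values only; 8 libraries were not analysed here. The deposited values are a signal per mature miRNA, scaled by the authors to a total of about 10000000 per library; a miRNA not listed was taken as 0. The scaling is read from the deposited values themselves: low values were multiples of 1 step, rounded down, from which reads per library were estimated. Bowtie, with no role stated, and GRCm38 (mm10) appear per the submitters' processing notes. How reads matching several miRNAs were treated is not given in the sources used here.

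limma 3.58.1 (R 4.3.3) with an intensity trend was fitted to log2(value + 1) of the 6 tissue libraries, with no covariate. Tests were two-sided, adjusted by Benjamini-Hochberg over 368 miRNAs, 88 hairpin ratios or 261 seed-family sums, at a threshold of 0.05. A fold is the ratio of the groups' mean CPM, and a log2 fold change comes from the model. The pseudocount of 1 shrinks the log2 fold change for low miRNAs, but a single very low library can enlarge it. For miR-142-5p it was -4.80, beside a fold of 13.1 for hypothalamus over SCN. On data simulated for this comparison (356 miRNAs passing the filter), 47 of 47 changed 4-fold, 40 of 47 changed 2-fold and 4 of 262 unchanged miRNAs were called. The simulated replicate spread was set in advance and independent between miRNAs, with no shift linked to GC share. These rates therefore need not hold for the real libraries. Positions are those of precursors in GENCODE M21 (GRCm38); miRNAs with several precursors were given none. Sequences are from RefSeq. The summed level of a list includes its members that were not tested.

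Named were the 6 largest rises and falls in each of 3 abundance ranges among called miRNAs with non-overlapping libraries, the 8 most abundant miRNAs of each tissue, up to 4 members of each list by smallest p, 6 hairpins and the most abundant or most changed families. Members of let-7, miR-7 and miR-92, miR-338's ratio, miR-429-3p, miR-139-5p, the miR-129 strands, miR-212-3p, miR-132-3p, miR-200a-3p and the clusters given were picked with their values in view. The miRNAs and the lists were chosen with earlier results of these data known. Alternatives were other pseudocounts, filters, scalings, subsets of libraries, a replicate block and a GC trend (loess of a library's deviation on GC share).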

Additional observations from a re-analysis of the deposited data

How the results depend on the processing

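Over 100 named miRNAs, ratios and family sums, 1318 alternative values were computed: 1228 kept direction and side of the threshold, 71 lost the call, 7 gained it and 12 reversed. Counts of called miRNAs were 254 to 274 with other pseudocounts, scalings, no filter or the 4 libraries alone, 178 of 211 with a minimum of 1000, 216 to 242 without each library in turn, and 179 of 318 with the GC trend, where 85 fell (140 of the same 318 without it, 157 of all 368). Arm ratios called were 19 (4 higher, 15 lower) of 27 with a minimum of 1000, and 7 to 13 higher ratios without each library in turn; family falls were 71 with that minimum. With the GC trend 4 neuronal, 2 oligodendrocyte, 1 vascular, 1 posterior Hox and 2 mirtron calls stood in the main direction, and 0 (limma; 0 at an unadjusted p under 0.05) of the Htr2c-intron miRNAs, of which 1 was called higher; few vascular miRNAs have a sequence.

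Oligodendrocyte calls were 2 without a filter and with median-ratio scaling, quantile scaling and scaling without the 10 most abundant, and 2 to 4 without each library; posterior Hox calls were 1 under the same settings and 1 to 2 without each library. Choroid plexus calls were 1 without a filter and 1 to 3 without each library; mirtron calls were 1 to 2. With a minimum of 1000, 1 erythrocyte, 1 muscle, 0 Sfmbt2-intron (limma; 1 tested, a fall) and 16 Dlk1-Dio3 calls stood among the fewer miRNAs tested. Htr2c-intron calls were 3 with the 4 libraries alone, 2 with a pseudocount of 10, 3 with 100 and 0 (limma; 1 at an unadjusted p under 0.05) with scaling without the 10 most abundant.

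Values that reversed with the GC trend were miR-335-5p 0.38, miR-127-3p -0.26, miR-26a-5p 0.48, miR-7a-5p 0.72, miR-99b-5p -0.40, miR-9-5p 0.20, miR-146a-5p 0.21, miR-1264-3p 0.94 and miR-369-3p 1.0. miR-124-3p was 0.02 with median-ratio scaling and 0.08 with scaling without the 10 most abundant, and the let-7f-5p family sum 0.27 with the same scaling. The cause was not tested. The labels do not say that a replicate number marks a shared pool or day: deviations of SCN 1 and hypothalamus 1 correlated with r = 0.0351, and a replicate block gave 263 calls, 107 higher and 156 lower, and 52 arm ratios and 185 families. Count tests (edgeR, DESeq2) were not run, as the files hold a scaled signal. Near 3 reads (0.837 to 1.35 CPM) values rest on few reads, and the pseudocount weighs most on the log2 fold change where a library is at 0.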
